A study of Mus musculus with 25 samples.

Results

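Open sea gene body CpGs are the cytosines followed by guanine that lie inside genes but far from any CpG island. The set was taken from the deposited table of reduced representation bisulfite sequencing (RRBS) as the CpGs on chromosomes 1 to 19 that the authors annotated to a gene body and to the open sea, with an average coverage of at least 10 reads. It held 130054 of the 283974 unique CpGs in the table, and of the 251026 CpGs on these chromosomes with that coverage. Before the coverage minimum it held 145104 CpGs; the lowest coverage inside the minimum was 10 reads and the highest just outside it 9.95 reads. The C57BL/6N mice were of genotype wt, and all were injected with E0771 mammary cancer cells into the 4th mammary fat pad at week 25. DNA came from the contralateral, 9th fat pad, a bulk tissue without the injected tumour, although the sample titles carry the word tumor and the cell line is listed as E0771. Control mice (n = 5) ate the control diet D12450J. Obese mice ate the 60% high-fat diet D12492 and remained obese, and 1 of them (mouse 22) is used here, so this group has no test. In the weight-loss groups, obesity from the same high-fat diet preceded 1 of 4 diets. These were a low-fat diet without restriction (LFD, n = 3), a low-fat diet restricted by 30% of calories (LFCR, n = 4), intermittent calorie restriction (ICR, n = 5), and a Mediterranean-style diet restricted by 30% (MCR, n = 3). Every contrast with Control below uses the same Control mice, which were never obese, so past obesity and diet cannot be told apart in any of these contrasts.

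In mammals most cytosines in CpG pairs carry a methyl group, and gene bodies outside islands are among the regions where methylation is densest. Methylation there accompanies transcription, since DNMT3 enzymes are recruited to the histone mark left by the elongating polymerase, while enhancers within gene bodies are CpGs of lower and more variable methylation that differ between cell types. RRBS reads only the ends of MspI fragments, cut at CCGG, so that open sea CpGs enter it where a pair of such sites lies close together.

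Of these CpGs, 96.6% lay inside a RefSeq gene, and 9257 gene symbols were listed for them, with a median of 6 CpGs per gene. The most, 3463 CpGs, were in Gm20388, 5181 genes had 5 or more and 1379 had 1. The CpGs came in clusters: the median gap to the next one was 62 bases, and 59.4% of gaps were 100 bases or less. The median coverage was 28.4 reads (quartiles 18 and 48.5), averaged over libraries, so that the depth behind a single mouse's value is not known.

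A small share of these body CpGs lies just before an annotated start of a further transcript, and RefSeq gives the sequence there (build GRCm38.p6, of which mm10 is the browser name). Of 32851 windows reaching from 250 bases before a start to 50 bases after it, 345 held 773 of the CpGs. All 345 contained the MspI site CCGG, which reads the same on both strands and was present in 52.8% of all windows. Over the 373 tested CpGs in these windows the mean level was 52.0% in Control and 39.3% in MCR, and the median difference was -12.0 percentage points. The 250 bases before the start are shown for 4 of the 6 windows with the most tested CpGs, picked after their values were seen, to show how open sea body CpGs sit around the MspI sites at a low, an intermediate and a high level. Capitals mark the CpGs of the set, each sequence runs 5′ to 3′ on the gene's strand, and the 4 lie at chr4:149676090-149676339 (minus strand), chr7:45759613-45759862 (minus), chr2:30652492-30652741 (minus) and chr5:114004558-114004807 (plus).
Pik3cd: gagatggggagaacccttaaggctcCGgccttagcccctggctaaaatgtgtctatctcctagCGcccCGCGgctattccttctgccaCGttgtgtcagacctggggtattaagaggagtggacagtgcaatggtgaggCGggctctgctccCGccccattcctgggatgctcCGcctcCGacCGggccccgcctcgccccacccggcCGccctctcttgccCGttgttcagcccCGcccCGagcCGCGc
Sult2b1: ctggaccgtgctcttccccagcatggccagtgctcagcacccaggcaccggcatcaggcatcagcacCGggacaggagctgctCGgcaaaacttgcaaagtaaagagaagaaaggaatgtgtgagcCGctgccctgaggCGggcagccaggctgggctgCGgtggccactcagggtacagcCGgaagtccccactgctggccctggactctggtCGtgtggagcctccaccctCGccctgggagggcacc
Gm32316: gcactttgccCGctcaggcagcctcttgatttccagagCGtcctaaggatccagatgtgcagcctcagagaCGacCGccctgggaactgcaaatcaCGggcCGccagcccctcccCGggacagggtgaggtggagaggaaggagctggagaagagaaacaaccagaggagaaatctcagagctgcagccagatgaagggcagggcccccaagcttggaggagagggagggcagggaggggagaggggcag
Dao: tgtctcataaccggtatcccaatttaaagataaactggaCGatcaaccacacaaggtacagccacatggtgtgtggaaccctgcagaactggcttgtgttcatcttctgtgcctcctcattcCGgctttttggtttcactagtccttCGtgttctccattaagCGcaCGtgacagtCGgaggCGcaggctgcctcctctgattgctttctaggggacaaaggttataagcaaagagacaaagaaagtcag

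The Pik3cd stretch holds 16 CpGs of the set, and the 300-base window 23, of which 12 could be tested. Pik3cd encodes the leukocyte catalytic subunit of phosphoinositide 3-kinase. Its window had levels of 26.4, 27.2, 12.9, 4.13 and 14.5% in Control mice 1, 2, 5, 10 and 13, and 2.14, 2.78 and 0.298% in MCR mice 85, 95 and 96. All 3 MCR mice were below every Control mouse, although Control mouse 10 came near them, and 9 of the 12 CpGs were called lower in MCR by limma. For comparison with this and the windows below, 33.7% of all tested CpGs and 37.1% of those of the set were called lower in MCR. In the window of Sult2b1, which encodes a steroid sulfotransferase, Control mice had 24, 27.3, 31.3, 22.8 and 27.8% and MCR mice 6.08, 8.44 and 6.99%. The LFCR mice 63, 67, 69 and 72 had 3.89, 3.76, 19.7 and 19.4% there, and the LFD mice 42, 47 and 48 had 4.58, 11.8 and 19.4%. Thus LFCR mice 63 and 67 and LFD mouse 42 lay below the MCR mice, and all of these mice, as well as Obese mouse 22 at 17.9%, were below every Control mouse. The start of the predicted transcript Gm32316 lies in the body of 9330198N18Rik; Control mice had 59.9, 56.2, 51.4, 52.1 and 55.7% in its window, MCR mice 32.3, 28.0 and 28.6%, and all 7 tested CpGs were called lower. LFCR mice again divided there, with 22.6 and 29.4% in mice 63 and 67 against 50.3 and 47.0% in mice 69 and 72. Dao encodes D-amino acid oxidase, and its window was the most methylated of the 4, at 83.3, 91.7, 89.6, 88.2 and 88.3% in Control and 70.0, 77.9 and 79.4% in MCR, with 4 of 7 CpGs called lower. All MCR mice were below the Control range there as well.

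The table has 25 library columns, and 4 were set aside as the rule asks: Obese mice 27, 28 and 40 and LFD mouse 46. At 712 CpGs of the set with low levels in the other 21 libraries (means of 2.86 to 4.86%), these 4 averaged 45.2 to 45.8%. Between 51.5% (Control mouse 1) and 99.5% of the CpGs had a value in each of the 21 libraries used, and 41793 had one in all. The median SD over the Control mice was 5.94 percentage points at a CpG (quartiles 4.03 and 8.51) and 2.88 points at the mean of a gene.

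Open sea gene bodies were less methylated after each of the 4 weight-loss diets than in Control, most after the Mediterranean-style diet. Over the 41793 CpGs with a value in all 21 mice, the mean methylation level was 72.4, 74.2, 71.5, 69.5 and 72.1% in Control mice 1, 2, 5, 10 and 13 (71.9 ± 1.72%, SD, n = 5). It was 70.1% in Obese mouse 22, within the Control range. MCR mice 85, 95 and 96 had 61.4, 60.8 and 61.4% (61.2 ± 0.356%, n = 3), the tightest group and below every Control mouse. LFCR mice 63, 67, 69 and 72 had 60.9, 61.6, 67.5 and 70.1% (65.0 ± 4.52%, n = 4). The LFCR mice were spread: mice 63 and 67 were at the MCR level, and mouse 72 was within the Control range. LFD mice 42, 47 and 48 had 62.8, 70.2 and 67.7% (66.9 ± 3.8%, n = 3), and mouse 47 overlapped Control. ICR mice 102, 103, 105, 106 and 112 had 68.0, 65.8, 69.1, 69.1 and 70.5% (68.5 ± 1.75%, n = 5), with 4 of 5 below every Control mouse.

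**Figure D1:**
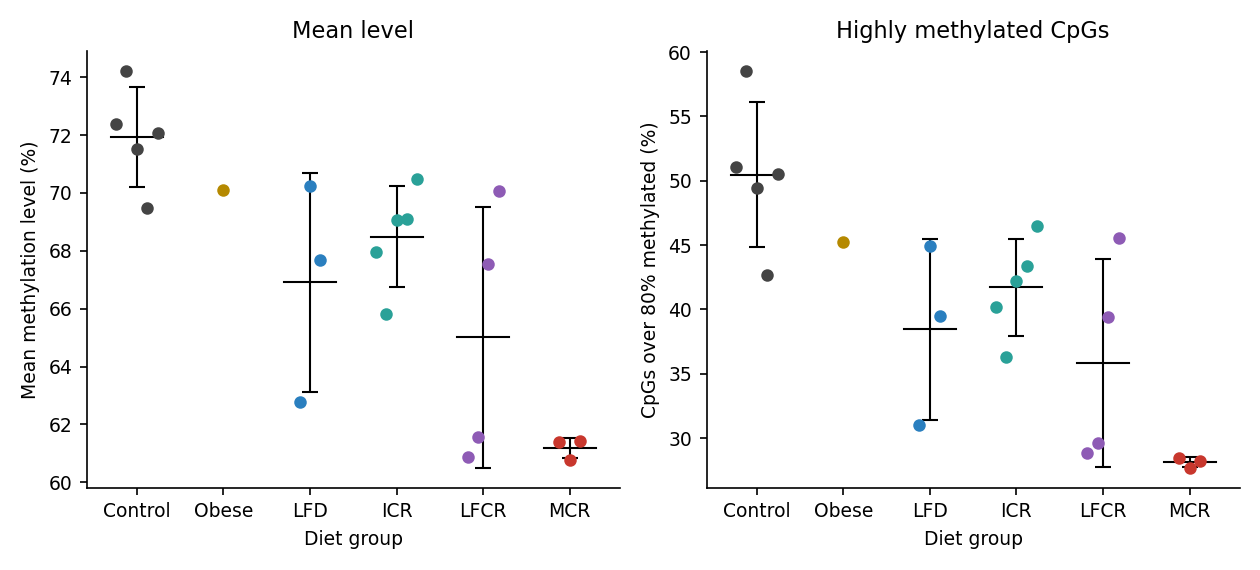
Mean methylation level (percent, y axis) of the 41793 open sea gene body CpGs measured in all 21 mice, by diet group (x axis), and at right the percent of these CpGs above 80%; each point is a mouse, and lines give group means with SD. At left the 3 MCR mice lie together at 60.8 to 61.4%, LFCR mice 63 and 67 and LFD mouse 42 lie near them, and the remaining mice reach from 65.8 to 74.2%.

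Against Control, MCR was lower by 10.7 points (difference -10.7; two-sided exact permutation p = 0.0179, adjusted 0.0238 over the 4 diets). For LFCR the difference was -6.93 points (exact permutation p = 0.0159, adjusted 0.0238), for LFD -5.03 points (p = 0.0357, adjusted 0.0357) and for ICR -3.44 points (p = 0.0159, adjusted 0.0238). The LFD difference was -2.97 points without mouse 42 and -2.71 with the set-aside mouse 46 included, neither under an adjusted p of 0.05. With Control mouse 1, 2, 5 or 13 left out, none of the 4 diets passed (exact permutation, adjusted p of 0.0571 to 0.0857), and with Control mouse 10 left out all did (0.0286). All MCR mice stayed below every Control mouse in each case, so the unadjusted MCR p was the smallest possible with the mice left. Without Control mouse 1, 2, 5 or 13, only the adjustment over the 4 diets took it past 0.05. Between the diets, every MCR mouse was below every ICR and every LFD mouse (mean differences of -7.30 and -5.72 points; exact permutation p = 0.0179 and 0.1, adjusted 0.107 and 0.3 over 6 pairs), and the 4 other pairs overlapped (adjusted p of 0.349 to 0.543). No pair of diets thus passed the test. The exact permutation p for MCR against LFD (0.1) and against ICR (0.0179) was the smallest possible at these group sizes. MCR against LFD could therefore not pass, and its result does not show that these diets were alike. In bulk tissue a changed mix of cells and a change within cells cannot be told apart.

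The lower mean came with fewer CpGs above a level of 80%. In Control 50.5 ± 5.64% of the CpGs (n = 5) had a level above 80%, and in MCR 28.1 ± 0.398% (n = 3), a difference of -22.3 points (exact permutation, adjusted p = 0.0408). The share above 80% also differed for LFCR (-14.6, adjusted p = 0.0408 by the same exact test) and ICR (-8.74, adjusted p = 0.0408), while LFD at -12.0 did not pass (adjusted p = 0.0536). The share of CpGs between 20 and 80% was 43.5% in Control and 61.8% in MCR. The share under 20% was 6.00% in Control and 10.1% in MCR (+4.09 points, exact permutation, adjusted p = 0.0408), so the intermediate range gained more than the low one. That share did not pass for LFCR, LFD or ICR (adjusted p = 0.0762, 0.487 and 0.762).

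The size of the difference followed the level of the CpG. With the CpGs placed in 5 ranges of their mean over the 21 mice (0 to 20, 20 to 40, 40 to 60, 60 to 80 and 80 to 100%), Control means were 12.4, 35.7, 58.4, 77.2 and 90.0%. MCR means in the same ranges were 8.96, 24.7, 40.9, 63.2 and 83.2%. The differences of -3.42, -11.0, -17.5, -13.9 and -6.78 points were largest at intermediate levels (exact permutation, adjusted p = 0.0275 in each range). LFCR gave -2.52, -7.72, -11.7, -8.92 and -4.08 points, LFD -1.48, -5.32, -8.39, -6.64 and -3.00, and ICR -1.14, -4.06, -6.16, -4.51 and -1.81. With these ranges the largest difference was at 40 to 60% in each diet. Since the MCR mice enter the mean that sets the ranges, they were also set on Obese mouse 22 alone, which is in neither group. The MCR differences then were -0.749, -4.57, -15.8, -15.8 and -8.70 points (exact permutation, adjusted p = 0.0298 in each): those below 60% were smaller than before, most so at the lowest levels, and those above 60% were larger. At 40 to 60% and 60 to 80%, LFCR then gave -10.8 and -10.2 points, LFD -7.56 and -7.52, and ICR -5.69 and -5.25. A peak at 40 to 60% alone thus depended on how the ranges were set.

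**Figure D2:**
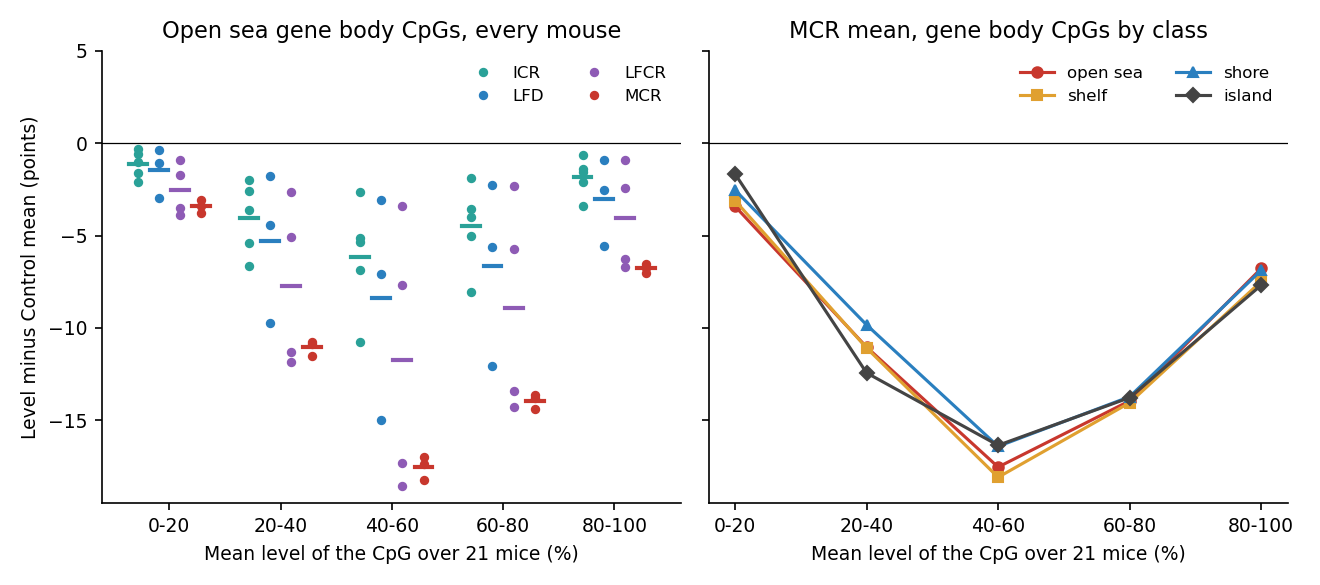
Difference from Control in methylation level (percentage points, y axis) of open sea gene body CpGs in 5 ranges of mean level (x axis), with single mice as points and diet means as short lines; at right the MCR means of 4 gene body classes, joined by lines. In the open sea the MCR difference runs from -3.42 points in the lowest range to -17.5 at 40 to 60% and -6.78 in the highest.

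Other CpGs within gene bodies were lower in MCR too. Island shelves in gene bodies were at 67.2% in Control and 56.2% in MCR (-11.1 points), shores at 45.4 and 36.7% (-8.67), islands at 30.4 and 23.5% (-6.93) and intergenic open sea CpGs, of which 598 could be used, at 70.6 and 62.5% (-8.11). The open sea body difference was larger than that of shores by 2.07 points, of islands by 3.82 and of intergenic open sea by 2.63 (differences of differences -2.07, -3.82 and -2.63), and smaller than that of shelves by 0.323 points (exact permutation, p = 0.0179, adjusted 0.0357 for each). With a single Control or MCR mouse left out, these gaps passed only where that mouse was Control mouse 10. At a common level, in CpGs of 60 to 80% on average, the classes were close: -13.9 points in open sea bodies, -14.0 in shelves, -13.7 in shores, -13.8 in islands and -12.9 in intergenic open sea. None of these gaps passed (0.103, -0.224, -0.175 and -1.03 points, exact permutation, adjusted p = 0.643, 0.524, 0.990 and 0.190). The intergenic value there rests on 167 CpGs. In the other ranges the gaps were not tested. At 80 to 100% the MCR differences were -6.78 points in open sea bodies, -7.48 in shelves, -6.88 in shores and -7.68 in islands. At 40 to 60% they were -17.5, -18.1, -16.4 and -16.3 points in the same order. The class label "intergenic" is the authors'; 65.4% of those CpGs lay inside a RefSeq gene.

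Within the open sea set, the difference varied with how many other measured CpGs lay close by. Counting the other CpGs of the table within 100 bases, Control levels were 75% for CpGs with none, 73.8% with 1 or 2, 70.9% with 3 to 5 and 65.6% with 6 or more. The MCR differences in the same order were -7.75, -10.1, -11.8 and -13 points. CpGs with no neighbour thus changed by 5.24 points less than those with 6 or more (exact permutation, adjusted p = 0.0238). The same gap was 3.61 points in LFCR (adjusted 0.0238), 2.10 in LFD (0.0357) and 1.92 in ICR (0.0238), by the same exact permutation test. Since crowded CpGs were less methylated, the comparison was repeated in CpGs of 60 to 80%. MCR then gave -12.1, -13.4, -14.6 and -15.0 points, a gap of 2.94 points (exact permutation, adjusted p = 0.0238). The gap there was 1.94 points in LFCR and 1.15 in ICR (adjusted p = 0.0238 for both, exact permutation), and 0.940 in LFD, which did not pass (adjusted p = 0.143).

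**Figure D3:**
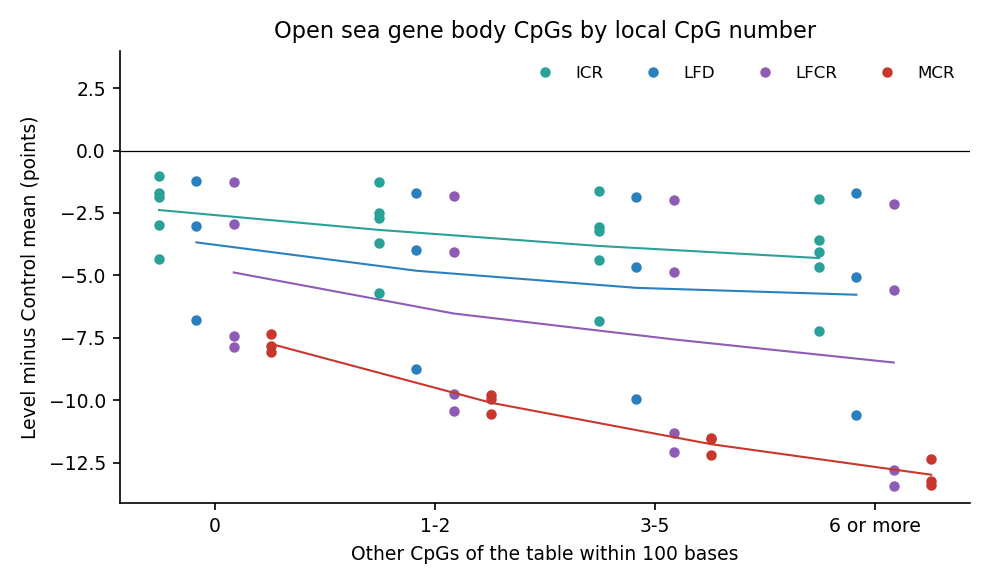
Difference from Control in methylation level (percentage points, y axis) of open sea gene body CpGs by the number of other measured CpGs within 100 bases (x axis), for each diet; points are single mice and lines the group means. For MCR the difference goes from -7.75 points with no neighbour to -13 points with 6 or more.

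How far the difference of a CpG lay from the average difference was shared by close CpGs and hardly by distant ones. Across pairs of neighbouring CpGs, the Pearson correlation of their MCR difference was 0.884 at 1 to 10 bases (5127 pairs), 0.824 at 11 to 50, 0.752 at 51 to 100 and 0.522 beyond 100 and up to 1000. It was 0.0846 beyond 1000 and up to 10000 bases (6579 pairs) and 0.0545 from there up to 100000. These are descriptions across pairs that share the same mice and, at the shortest distances, the same reads. By chromosome the mean MCR difference ran from -8.06 points on chromosome 13 (449 CpGs) to -12.3 on chromosome 18 (481 CpGs), so it was negative on each of the 19 chromosomes.

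At single CpGs, 58776 of the 130054 had at least 3 values in each of Control, LFD, LFCR, MCR and ICR and were tested with limma; 71278 did not and were not tested. In MCR 21827 CpGs (37.1%) passed an adjusted p of 0.05 with a lower level and 2583 (4.39%) with a higher one, with a median difference of -9.40 points. Over all 125731 CpGs tested on chromosomes 1 to 19 in any class, 33.7% were called lower and 4.68% higher, so the open sea shares were near that background. The share lower was 42.2% in shelves, 33.4% in shores, 26.0% in islands and 29.2% in intergenic open sea. In LFCR 7748 CpGs (13.2%) were lower and 861 (1.46%) higher, against 12.7% and 1.58% of all tested, with a median of -5.90 points. These LFCR calls rested on single mice: the 8609 calls in both directions became 7 without LFCR mouse 63, 15 without mouse 67, 969 without Control mouse 2, 4106 without Control mouse 1, 4491 without Control mouse 13 and 16235 without LFCR mouse 72. No CpG was called in LFD (0% of all tested; 11577 open sea CpGs at an unadjusted limma p under 0.05; median -4.44 points) or in ICR (0% of all tested; 7817 unadjusted; median -3.04).

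Levels were then averaged per gene over its open sea body CpGs, for the 2717 genes with 5 or more tested CpGs. In MCR 1937 genes (71.3%) were lower and 114 (4.20%) higher by limma. Over all 4875 combinations of gene and island class tested, 67.1% were lower and 5.62% higher. The median difference was -9.31 points, with the middle 90% of genes between -24.0 and 4.03. In LFCR 1383 genes (50.9%) were lower and 66 (2.43%) higher, against 48.5% and 3.57% of all combinations, with a median of -5.79; the 1449 calls became 489 without LFCR mouse 63, 543 without mouse 67 and 965 without Control mouse 2. MCR and LFCR share their Control mice, and 1350 genes were lower in both, 63 higher in both and none in opposite directions. This overlap was not counted over all combinations, so it is not known to be particular to the open sea. In LFD no open sea gene passed (0.041% of all combinations did; 1009 open sea genes at an unadjusted limma p under 0.05), but 699 did without LFD mouse 47 and 4 without Control mouse 10. In ICR none passed (0% of all combinations; 550 unadjusted). The genes lower in MCR had a median Control level of 77.7% and 13 tested CpGs over 15903 bases, and the genes higher in MCR 53.1% and 9 CpGs over 7343 bases.

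Among the open sea gene levels that fell most in MCR were the 10 of Tmem140, Nrgn, Gm14319, Gata2, Ccm2l, Gm16090, Lnx2, Cd300lg, Klf3 and Lag3, with differences from -52.9 to -37.1 points. Ccm2l, a relative of the endothelial junction gene Ccm2, had the most CpGs of the 10, with a level that averages 60 CpGs within chr2:153071577-153072133. Control mice had 65.2, 72.7, 64.7, 53.3 and 65.4% (64.3 ± 6.94%, n = 5), Obese mouse 22 had 67.2%, and MCR mice had 18.8, 31.3 and 24.3% (24.8 ± 6.29%, n = 3). LFCR mice 63, 67, 69 and 72 had 26.6, 23.6, 44.1 and 55.1%. Every MCR mouse was below every Control mouse, by -39.5 points on average (SE 6.36, limma adjusted p = 0.000305), and LFCR mouse 72 lay within the Control range.

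Gata2 encodes a transcription factor of blood stem cells and endothelium, and its 18 CpGs lie within chr6:88204467-88204891. Control mice had 58.9, 63.1, 47.7, 41.5 and 58.8% (54.0 ± 9.02%, n = 5) and MCR mice 14.6, 9.14 and 15.0% (12.9 ± 3.27%, n = 3). LFCR mice had 13.6, 17, 34.2 and 45.2%, LFD mice 42, 47 and 48 had 18.2, 41.8 and 39.0%, and ICR mice 102, 103, 105, 106 and 112 had 33.4, 26.1, 43.7, 43.9 and 46.0%. The MCR mice were the lowest apart from LFCR mouse 63, which lay among them, and the MCR difference was -41.1 points (SE 7.08, limma adjusted p = 0.000305). Nrgn encodes neurogranin, a calmodulin-binding protein of synapses; over 6 CpGs within chr9:37546045-37546108, Control mice 2, 5, 10 and 13 had 82.6, 68.0, 67.6 and 69.5%, and MCR mice had 25.8, 34.1 and 26.2%. LFCR mice had 24, 18.6, 51.4 and 58.8% and Obese mouse 22 had 58.5%, all below the lowest Control mouse. The MCR difference in Nrgn was -43.3 points (SE 8.41, limma adjusted p = 0.000449). Tmem140, a membrane protein gene, had the largest difference but few values: 6 CpGs within chr6:34867438-34867491, 78.5, 67.9 and 67.1% in the 3 Control mice measured, 59.7% in Obese mouse 22, and 23.8, 5.69 and 25.1% in MCR (-52.9 points, SE 13.4, limma adjusted p = 0.00259).

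Lag3, an inhibitory receptor of T cells, had 12 CpGs at 69.4, 76.7, 65.6, 59.1 and 70.3% in Control and 31.4, 29.2 and 32.8% in MCR (-37.1 points, SE 7.01, limma adjusted p = 0.000371). Cd300lg, an adhesion receptor of endothelial cells, had 79.2, 82.8, 71.1, 62.3 and 73.0% in Control and 43.6, 32.6 and 31.6% in MCR (-37.8 points, SE 7.67, limma adjusted p = 0.000532). Both genes showed MCR mice below every Control mouse. The remaining genes of the 10 were Lnx2, a ubiquitin ligase, Klf3, a transcriptional repressor, and the unnamed Gm14319 and Gm16090, with differences of -42.6 to -37.4 points. Klf3 was the only gene of the 10 to change by more than 1.5 times when CpGs within 100 bases of each other were merged, to -16.3 points. In each of the 10 genes all MCR mice lay below all Control mice, and leaving out any single mouse of either group kept the limma call.

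The 12 levels that rose most in MCR were those of Gm20531, Fam166b, Spi1, P2rx7, Gm12977, Sh2d5, Sh2b3, Rhoq, Cd79b, H2-Oa, Dok2 and Wfs1, with differences from +40.2 to +25.3 points. Gm20531 shares all of its 6 CpGs, at chr6:124732693-124732849, with Ptpn6, which encodes SHP-1, a phosphatase of blood cells. Control mice had 18.4, 13.4, 25.8, 29.3 and 23.1% there (22.0 ± 6.22%, n = 5), and MCR mice had 62.3, 58.5 and 65.6% (62.1 ± 3.54%, n = 3). LFCR mice had 65.9, 62.5, 38.3 and 30.0%, above every Control mouse, with mice 63 and 67 at or above the level of the MCR mice. The MCR difference was +40.2 points (SE 6.45, limma adjusted p = 0.000305).

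Spi1 encodes PU.1, a transcription factor needed for myeloid and B cells, and 5 of its CpGs lie within chr2:91097085-91097195. Control mice had 37.3, 31.7, 49.2, 61.4 and 46.9% (45.3 ± 11.5%, n = 5), Obese mouse 22 had 40.7%, and MCR mice had 78.1, 82.8 and 79.5% (80.1 ± 2.45%, n = 3). LFCR mice had 74.3, 72.8, 58.6 and 54.7%, LFD mice 76.2, 53.4 and 62.8%, and ICR mice 58.9, 67.2, 55.5, 52.9 and 45.5%. Only MCR was apart from Control in every mouse, at +34.8 points (SE 6.45, limma adjusted p = 0.000352). The LFCR difference of +19.8 points (limma adjusted p = 0.0139) no longer passed without LFCR mouse 63 or without mouse 67. Cd79b encodes a subunit of the B-cell receptor; its 5 CpGs within chr11:106313704-106314002 had 17.5, 8.96, 19, 22.3 and 19.4% in Control and 43.0, 32.6 and 56.5% in MCR (+26.6 points, SE 5.19, limma adjusted p = 0.000429). P2rx7, an ATP-gated channel of immune cells, had 28.3, 46.8, 43.9 and 35.0% in Control mice 2, 5, 10 and 13, 48.6% in Obese mouse 22 and 70.7, 70.8 and 73.3% in MCR (+33.1 points, SE 7.59, limma adjusted p = 0.00126). In both genes the Control and MCR mice did not overlap.

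The rest of the 12 were Dok2 (+25.7), an adaptor of blood cell kinases, Sh2b3 (+28.4), the adaptor Lnk, H2-Oa (+26.2), a modulator of MHC class II loading that shares 7 CpGs with BC051537, Rhoq (+27.0), the GTPase TC10, Wfs1 (+25.3), wolframin of the endoplasmic reticulum, Gm12977 (+31.9), which shares 11 CpGs with Rps6ka1, Sh2d5 (+29.6), which shares 6 with Kif17, and Fam166b (+37.4). With CpGs within 100 bases merged, Sh2b3 was at +13.1 points. In all 12 genes every MCR mouse was above every Control mouse, and no single mouse left out ended the limma call. These genes were chosen for the size of their difference, so that the lack of overlap describes them and is no test.

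**Figure D4:**
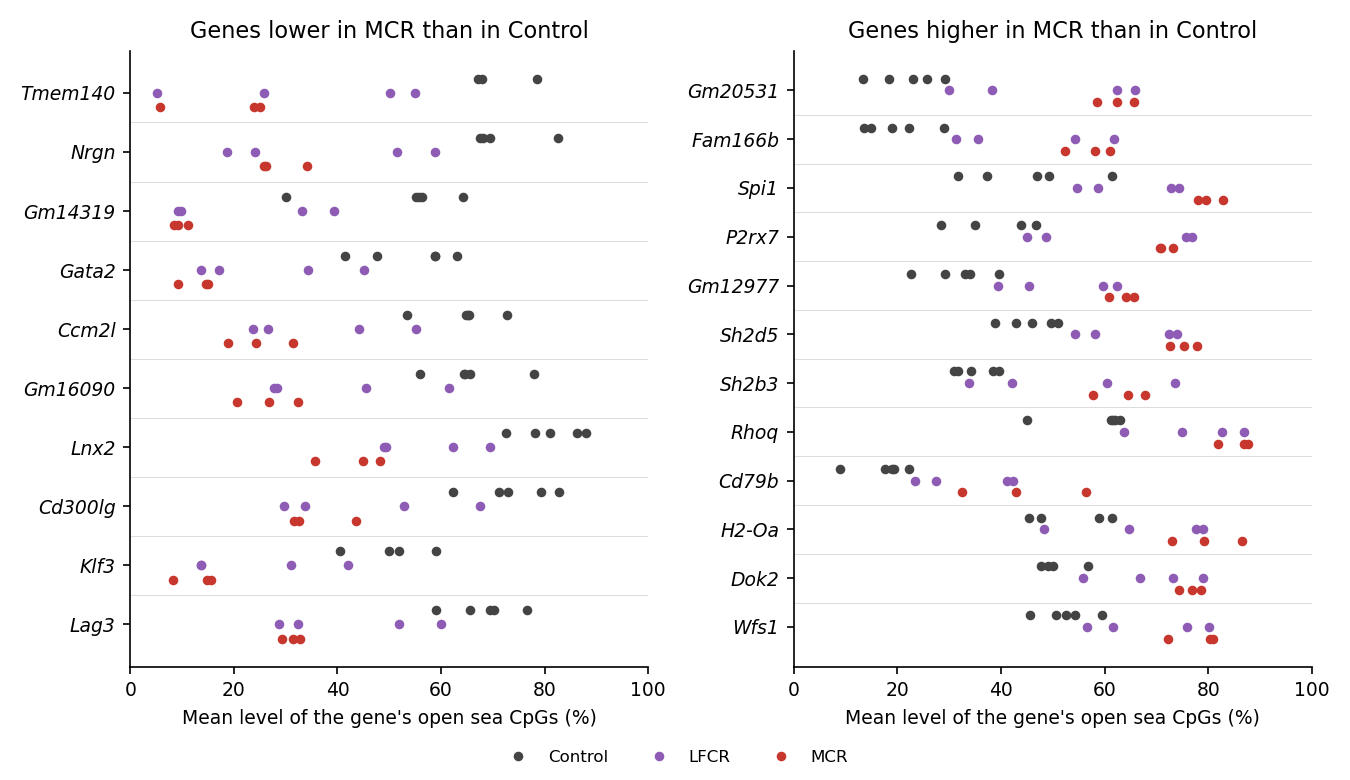
Mean level of open sea body CpGs (percent, x axis) in the genes described above (y axis), those lower in MCR at left and those higher at right; each point is a Control, LFCR or MCR mouse. In every gene shown the MCR mice are clear of the Control mice, as in Gata2 (means of 12.9% and 54.0%) and Spi1 (80.1% and 45.3%), and the LFCR mice are widely spread.

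Lists of marker genes were read at the same CpGs, as counts only, beside 71.3% lower, 4.20% higher and a median of -9.31 points over all 2717 genes in MCR. Of 18 adipocyte genes 2 could be tested, and both fell in MCR: Plin1, the coat protein of lipid droplets (-12.8 points, limma adjusted p = 0.00671), and Lipe, hormone-sensitive lipase, whose CpGs are shared with 4732471J01Rik (-15.3, adjusted p = 0.00363). The mean of the list was 72.7 to 85.2% over Control mice and 64.2 to 71.7% over MCR mice. Of 18 fibroblast and matrix genes 5 were tested and 5 fell, by a median of 15.4 points (difference -15.4), among them Pdgfrb (-15.4), a receptor of mesenchymal cells, Col1a1 (-17.2, limma adjusted p = 0.000429), a chain of collagen I, and Col6a1 (-12.8). The list mean was 72.2 to 79.2% in Control mice and 59.8 to 62.4% in MCR mice. Both tested basal epithelial genes of 14 fell, Itgb4 (-19.9), a hemidesmosome integrin, and Mylk (-15.2), a myosin kinase of contractile cells. The 1 tested luminal gene of 19, the oestrogen receptor Esr1, fell by 6.93 points (limma adjusted p = 0.0415), a call that did not pass once Control mouse 1, Control mouse 2, MCR mouse 85 or MCR mouse 95 was left out, nor with CpGs within 100 bases merged. Of 15 skeletal muscle genes 4 were tested and 3 fell: Tnnt3 (-17.6), Ryr1 (-11.2) and Cacna1s (-10.6), while Ckm was at -3.44 (limma adjusted p = 0.222).

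Of 15 endothelial genes 5 were tested, 4 fell and 1 rose, a share lower near that over all genes, with a list mean of 72.3 to 75.6% in Control mice and 58.1 to 60.6% in MCR mice. Robo4, a guidance receptor of endothelium, had 63.0, 69.5, 60.7, 68.6 and 62.2% in Control and 26.7, 33.0 and 32.2% in MCR (-34.1 points, limma adjusted p = 0.000316). Flt1 (-20.5) and Flt4 (-8.78), both VEGF receptors, and Eng (-16.8), endoglin, fell as well, whereas Vwf, the von Willebrand factor gene, rose by 7.22 points (limma adjusted p = 0.0044). The macrophage and lymphocyte lists moved both ways. Of 15 macrophage genes 4 were tested: Cx3cr1 (-11.9, with 25 of its 50 CpGs shared with Ttc21a) and Mrc1 (-7.29) fell, and Irf8 (+7.68, limma adjusted p = 0.0157, its 23 CpGs also listed under Gm20388) and Spi1 rose, and the list mean was 63.6 to 71.7% in Control mice and 72.3 to 73.8% in MCR mice. Of 21 lymphocyte genes 6 were tested: Runx3 (-12.1) and Pax5 (-11.3) fell, Cd79b and Zap70 (+6.67, limma adjusted p = 0.0313) rose, and Bcl11b (-1.59) and Tcf7 (-2.78) did not pass. Its mean was 58.4 to 62.9% in Control mice and 57.9 to 65.4% in MCR mice. Whether the share of these cell types differed between the groups was not tested, and methylation of a marker gene is no count of its cells.

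In pathway lists most tested genes fell in MCR, as did 71.3% of all genes tested. Of 26 Wnt and TGF-beta genes 12 were tested and 11 fell, with a median of -15.4 points, beside -9.31 over all genes. Among them were the inhibitory Smad7 (-24.9) and Smad6 (-22.7), the receptor-activated Smad3 (-16.5), the ligand Tgfb1 (-21.0), and in the Wnt branch Tcf7l2 (-18.2) and Axin2 (-17.1), whereas Lef1 was at +0.736 (limma adjusted p = 0.813). Of 18 lipid genes 5 were tested and 5 fell: Srebf1 (-14.7), the lipogenic regulator, Dgat2 (-11.9), which completes triglycerides, Fasn (-9.38), fatty acid synthase, Acacb (-7.62) and Mlxipl (-4.46). Of 14 thermogenic genes 2 were tested and 2 fell, Prdm16 (-13.6 over 369 CpGs), a driver of brown and beige fat, and Zfp516 (-21.3, limma adjusted p = 0.003), which did not pass when CpGs within 100 bases of each other were merged (-8.68, limma adjusted p = 0.0994). Of 25 insulin, IGF and mTOR genes 6 were tested: Pik3cd (-17.6), Akt1 (-13.2) and Igf1r (-12.9) fell, and Tsc2 (-4.90), Akt2 (-5.96) and Rps6ka1 (+1.92) did not pass. Of 21 inflammation genes 2 were tested and neither passed, Stat3 at +4.89 (limma adjusted p = 0.128) and Irf5 at -6.07 (0.161).

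Of 14 genes of the DNA methylation machinery 3 were tested and 3 fell in MCR. Tet3 encodes an enzyme that oxidises methylcytosine; its body CpGs had 88.1, 83.3, 81.5, 78.2 and 78.9% in Control, 53.5, 55.2, 67.8 and 73.1% in LFCR and 56.1, 53.1 and 51.1% in MCR. LFD mice had 65.2, 74.9 and 63.2%, ICR mice 69.0, 58.9, 70.8, 71.1 and 76.7%, and Obese mouse 22 had 68.2%. No other mouse reached the Control range, Obese mouse 22 included, and the MCR difference was -28.6 points (limma adjusted p = 0.000305). Dnmt3a, a de novo methyltransferase, was at 44.3 ± 1.03% in Control (n = 5) and 32.1 ± 1.45% in MCR (n = 3) over 34 CpGs, a difference of -12.2 points, and at 40.7% in Obese mouse 22, below every Control mouse. Uhrf1, a cofactor of maintenance methylation, differed by -7.24 points (limma adjusted p = 0.00228). Of 22 genes of histone lysine methylation 11 were tested and 10 fell, among them Kmt2d (-12.5), a methyltransferase, Kdm4b (-11.8), a demethylase, and Prdm16, which is also in the thermogenic list, while Ehmt2 was at +1.23 (limma adjusted p = 0.508). Of 15 clock genes 4 were tested: the repressors Cry2 (-25.1, shared with D930015M05Rik), Per2 (-11.1) and Per1 (-7.57) fell, and the output factor Hlf (+11.9, limma adjusted p = 0.0123) rose. In LFD and ICR no gene of any list was called, with 0 of all open sea genes passing in either.

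In LFCR the named genes included many of those of MCR: Tmem140 (-37.1 points), Nrgn (-33.7), Gm14319 (-29.4) and Cd300lg (-27.7) were among those that fell most, and Gm20531 (+27.2), Fam166b (+26.0), P2rx7 (+23.1), Mrvi1 (+20.5), Gm12977 (+20.1) and Spi1 rose most. Of these genes, Tmem140, P2rx7 and Mrvi1 lost the limma call without Control mouse 2, LFCR mouse 63 or LFCR mouse 67, and Spi1 without either of these LFCR mice. In LFD, where no gene passed, the smallest p belonged to Abat, which encodes GABA transaminase, with 55.7, 56.8 and 52.0% in LFD mice 42, 47 and 48 and 73.1 ± 2.21% in Control (n = 4; -18.3 points, SE 3.39, limma adjusted p = 0.0743). Vasn, vasorin, a trap for TGF-beta that shares all 5 CpGs with Coro7 and Dnaja3, had 31.9, 36.5 and 43.3% in LFD and 64.6, 80.8, 67.9, 57.4 and 63.6% in Control (-29.6 points, SE 5.88, limma adjusted p = 0.0743). Cd9, a tetraspanin, Adcy3, an adenylyl cyclase, and Gnb3, a G protein subunit, were at -19.8, -13.5 and -13.8 points with the same adjusted p. Each of these 5 was under 0.05 without LFD mouse 47 (limma adjusted p = 0.0299). In ICR the smallest p was in Upk3b, a uroplakin, with 23.9, 29.8, 36.9, 26.6 and 39.8% against 54.9, 59.1, 45.1, 55.4 and 51.2% in Control (-21.7 points, SE 4.76, limma adjusted p = 0.223). Spata25 (-11.9), Gm20625 (-12.6) and Sec31b (-8.96) followed with the same adjusted p, and no ICR call appeared with any mouse left out.

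Called CpGs of both directions occurred within single genes. Over the set 37.1% of tested CpGs were lower and 4.39% higher in MCR. Of the 2717 genes, 1728 had called CpGs in MCR that were all lower, 103 had called CpGs that were all higher, 573 had both and 313 had none; 187 had at least 3 of each. In Gm20388, whose annotation runs across many other genes, 884 of 2128 tested CpGs were lower and 195 higher. All 417 tested CpGs of Gse1, a component of a histone deacetylase complex, are among them, with 221 lower and 47 higher, with the middle 90% of its CpGs between -37.3 and 22.5 points. Prdm16 had 202 lower and 36 higher of 369 (-40.1 to 24.4 points), although its mean fell. Sept9, a cytoskeletal septin, had 114 lower and 22 higher of 211, and Camta1 had 95 and 5 of 323, fewer in both directions than the shares over the set would give. In Arid3a, a DNA-binding factor of B cells, the calls were near balance with 21 lower and 16 higher of 63.

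The same genes could be compared between open sea and nearer classes within their body. In 254 genes measured in both open sea and shelf, the median MCR difference was -11.0 points in the open sea and -10.2 in the shelf. Of these genes 155 were lower in both, of 218 lower in the open sea and 177 lower in the shelf, and 15 were called in opposite directions. In 459 genes with shore CpGs the medians were -10.7 and -9.13, and 274 were lower in both, of 375 lower in the open sea and 319 lower in the shore. In 289 genes with island CpGs the medians were -10.7 and -3.60, and 121 were lower in both, of 235 and 144. Across genes, the Pearson correlation of the open sea difference with that of the same gene's other class was 0.181 for shelves, 0.153 for shores and 0.135 for islands, a description over genes measured in the same mice. The gene level difference in the open sea thus told little of the size in another class of the gene.

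At single CpGs the largest differences passed 60 points. At chr15:79436565 in Csnk1e, which encodes the clock kinase casein kinase 1 epsilon, Control mice had 73.7, 87.5, 70.0, 62.5 and 79.2% and MCR mice 2.17, 10.5 and 12.1%. LFCR mice had 1.25, 3.12, 21.9 and 53.3%, LFD mice 10.7, 37.5 and 42.1%, and ICR mice 39.1, 21.3, 39.3, 45.2 and 40.0%, all below every Control mouse, as was Obese mouse 22 at 44.4%. The MCR difference was -66.3 points (SE 9.95, limma adjusted p = 0.000776). At chr19:4156313 in Ptprcap, a partner of the phosphatase CD45 in lymphocytes, Control mice had 15.2, 22.2, 20.8, 41.7 and 34.8% and MCR mice 81.0, 90.0 and 92.3%. LFCR mice had 62.1, 100, 57.1 and 45.2% there, and the MCR difference was +60.8 points (SE 11.3, limma adjusted p = 0.00129). Single CpGs in Lgmn (-68.2) and Gm32352 (-66.5) fell by more and a pair in Cd276 (+63.6 and +61.2) rose by more.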

How the data were processed

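Methylation was measured by RRBS of mammary fat pad DNA in 25 libraries, 21 of which were used. Reads were aligned with Bismark to mm10, per the submitters' processing notes. The deposited table gives, per CpG, a methylation fraction for each library and an average coverage. How the authors filtered the table is not given in the sources used here. Coverage multiplied by 21 is whole at every CpG, as for an average over 21 libraries, but which libraries entered it is not stated. Depth per library is not known, so no count model was used and no interval for counting error can be given.

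Mice were grouped by their treatment label. For each CpG on chromosomes 1 to 19 with coverage of at least 10 and at least 3 values in Control, LFD, LFCR, MCR and ICR, limma 3.58.1 (R 4.3.3) was fitted to the fractions with 1 mean per group, and p-values were adjusted by Benjamini-Hochberg over all CpGs of any class, with calls at an adjusted p under 0.05. Gene levels averaged at least 5 tested body CpGs of 1 class, a mouse needing 0.5 of them, and were tested in the same way over all genes and classes; a CpG shared by overlapping genes counts for each. Group means were compared with two-sided exact permutation tests over mice, adjusted over their family. Nothing in the labels says that mice were handled independently beyond their separate numbers. Named genes were, per diet, the 12 lower and 12 higher called open sea genes of largest difference for MCR, 6 and 6 for LFCR, the 5 of smallest p where fewer than 10 were called, up to 3 members of each gene list and the 4 genes with most CpGs. Some genes that the rule selects are not reported here. Further list members, and the windows before RefSeq starts, were chosen after their values were seen. The CpGs, gene lists and tests were chosen with earlier results of these data known. The fitting was tested on simulated data. Alternatives tried were leaving out each mouse, merging CpGs within 100 bases, other coverage and CpG minimums, values in all mice, ranges set on Obese mouse 22 and adding LFD mouse 46. Other software was Python 3.11.15, pandas 2.3.3, numpy 2.4.6 and matplotlib 3.10.9.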

Additional observations from a re-analysis of the deposited data

Results flagged for a closer look

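The mice of each group of 4 or 5 were compared for a mouse far from the rest, over 108 groups. These covered the named genes and the mean level and level range shares of the set. Chance alone finds about 1 group in 20, and 5 were found, all in named genes. Control mouse 2 stood above the other Control mice in Nrgn (82.6%) and below them in Rhoq (45.1%), Control mouse 10 stood below them in Gm14319 (30.0%), and among the ICR mice, mouse 103 was low in Nrgn (32.8%) and mouse 102 in Abat (57.2%). Leaving out Control mouse 2 or 10 did not end the MCR call of these genes.

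The 4 libraries set aside carried signal at CpGs that were nearly unmethylated elsewhere. At 712 open sea body CpGs where the other 21 libraries averaged 2.86 to 4.86%, Obese mouse 27 averaged 45.4%, Obese mouse 28 45.2%, Obese mouse 40 45.6% and LFD mouse 46 45.8%. The difference was not tested.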

How the results depend on the processing

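No paired analysis was possible because the groups share no mouse numbers. Leaving out each mouse in turn kept the sign of the mean difference in every diet: -11.4 to -10.2 points in MCR, -4.06 to -2.77 in ICR, -6.70 to -2.97 in LFD and -8.62 to -5.55 in LFCR. All 4 diets missed the threshold without Control mouse 1, 2, 5 or 13, although the unadjusted MCR p was then the smallest possible with the mice left. LFD also missed it without LFD mouse 42 or 48 and, at -2.71, with mouse 46 included, and the cause was not tested. At the 21899 CpGs of the set with a value in all 25 libraries, mouse 46 averaged 75.1%, and the Control mice 67.7 to 72.7%. Open sea minus shelf ranged over 0.241 to 0.424 points in MCR, 0.121 to 0.264 in ICR, 0.225 to 0.381 in LFD and 0.176 to 0.270 in LFCR. Minus shore the ranges were -2.27 to -1.96, -0.692 to -0.498, -1.08 to -0.446 and -1.59 to -0.960 in the same order of diets. Minus island they were -4.23 to -3.59, -1.34 to -0.714, -2.91 to -0.990 and -2.62 to -1.59, and minus intergenic open sea -2.89 to -2.41, -1.01 to -0.525, -1.43 to -0.570 and -1.97 to -1.26. In MCR all 4 gaps missed the threshold without Control mouse 1, 2, 5 or 13 (exact permutation, adjusted p = 0.0571). They also missed it without MCR mouse 85, 95 or 96 (exact permutation, adjusted p = 0.0635), and passed without Control mouse 10 (adjusted 0.03265). Over the 4 diets the threshold was lost in 18 such runs for shelves and 22 for shores. It was lost in 20 for islands and 13 for intergenic open sea.

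In CpGs of 60 to 80%, open sea minus shelf was 0.103, 0.0397, 0.341 and -0.0170 points in MCR, LFCR, LFD and ICR, minus shore -0.224, -0.264, 0.183 and -0.153, minus island -0.175, 0.00511, 0.278 and 0.0586, and minus intergenic open sea -1.03, 0.138, 0.826 and 0.0898. Class gaps therefore depended on the level of the CpGs compared. CpGs called ranged over 19129 to 24916 in MCR, 0 to 2 in ICR, 0 to 11 in LFD and 7 to 16235 in LFCR with a mouse left out, and LFD had 1 where a value was needed in all 21 mice. Genes called ranged over 1887 to 2076 in MCR, 489 to 1792 in LFCR and 0 to 699 in LFD, stayed at 0 in ICR, and MCR had 1293 where 10 CpGs were needed, since fewer genes were then tested. In the lowest range set on Obese mouse 22, LFD at -0.0535 and ICR at -0.127 points did not pass, nor LFD at -1.80 from 20 to 40%. Of single genes, Stat3 in MCR, not called, went to -0.268 with close CpGs merged; the cause was not tested.

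Single-mouse depth is unknown, so noise at a single CpG cannot be weighed by mouse. Position along the gene was not used, as under 0.8 of the CpGs had one, and flanking bases were not used.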
